A study of Rattus norvegicus with 18 samples.

Results

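The heat shock and endoplasmic reticulum (ER) stress genes are 10 genes taken by symbol, 5 of the cytosolic heat shock response (Hspa8, Hsp90aa1, Hsph1, Dnajb1 and Hspb1) and 5 of ER stress and the integrated stress response (Hspa5, Xbp1, Atf4, Ddit3 and Atf3). All 10 were found among the 32285 genes of the retina table and the 32552 genes of the RPE/choroid table, which share 31938 genes, and all 10 passed edgeR's expression filter in each comparison. Bulk RNA-seq was done on retina and on retinal pigment epithelium with choroid (RPE/choroid) of wild-type female Fischer344 (F344) rats, an inbred strain whose retina degenerates with age. Each tissue had 3 libraries from young rats of 4 months, 3 from aged rats of 24 months given plain water, and 3 from aged rats of 24 months that drank 8-aminoguanine (8-AG) with their water for 8 weeks, at a daily dose of 5 mg/kg. 8-AG is a guanine derivative that inhibits purine nucleoside phosphorylase, the enzyme that breaks down purine nucleosides. The labels do not say whether libraries of one group came from separate rats. Libraries 1 and 2 of young RPE/choroid share a label number and differ in the letter L or R, as do libraries 1 and 2 of aged RPE/choroid, so the p-values measure the spread between libraries, which may be partly technical.

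When proteins misfold in the cytosol, heat shock factor 1 binds heat shock elements in DNA and turns on chaperones, which hold, refold or pass on unfolded proteins. When proteins misfold in the ER, the sensors IRE1, PERK and ATF6 act through the transcription factors XBP1, ATF4 and cleaved ATF6 to raise ER chaperones and, if stress lasts, the pro-apoptotic factor CHOP. ATF4 is also made when amino acids run short or haem or viral sensors are active, and it then drives ATF3 and CHOP, a route called the integrated stress response. Photoreceptors make large amounts of rhodopsin in the ER, and misfolded rhodopsin is a known trigger of the unfolded protein response in retinal disease models.

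The binding elements of these pathways can be read in the members' promoters. RefSeq promoter sequences of the rat build GRCr8, from 250 bases before to 50 bases after the annotated start, were at hand for 8 of the 10 members and not for Hsp90aa1 or Atf3. A heat shock element, searched as GAANNTTC or TTCNNGAA, stood in all 4 heat shock members with a promoter (Hspa8, Hsph1, Dnajb1 and Hspb1) and in none of the other 4, against 15.9% of 33469 promoters. An ER stress element, searched on both strands as CCAAT and CCACG with 9 bases between them, stood in Hspa5 and Xbp1 and in only 22 of the 33469 promoters (0.0657%). The unfolded protein response element TGACGTGG (0.595% of promoters) and the amino acid response element core TGATGCAA (0.795%) were in none of the 8 windows. A match is a run of letters and was not tested for binding. Promoters of 4 members are shown because they carry these elements next to the genes whose levels are described first. The capitals mark heat shock elements in Hspb1 and Hsph1 and the ER stress element in Hspa5 and Xbp1. In Hsph1 the last 2 heat shock elements overlap and start 36 and 31 bases before the annotated start. The ER stress element starts 43 bases before it in Hspa5 and 65 bases before it in Xbp1. The windows are chr12:26432252-26432551 (minus strand), chr12:10427118-10427417 (plus strand), chr3:38452766-38453065 (plus strand) and chr14:84604373-84604672 (plus strand).
Hspb1: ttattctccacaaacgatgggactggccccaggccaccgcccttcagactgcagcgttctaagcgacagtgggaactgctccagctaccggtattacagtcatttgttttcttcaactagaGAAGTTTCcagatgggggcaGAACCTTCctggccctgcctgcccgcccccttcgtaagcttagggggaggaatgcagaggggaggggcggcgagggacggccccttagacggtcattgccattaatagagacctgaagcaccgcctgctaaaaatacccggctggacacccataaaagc
Hsph1: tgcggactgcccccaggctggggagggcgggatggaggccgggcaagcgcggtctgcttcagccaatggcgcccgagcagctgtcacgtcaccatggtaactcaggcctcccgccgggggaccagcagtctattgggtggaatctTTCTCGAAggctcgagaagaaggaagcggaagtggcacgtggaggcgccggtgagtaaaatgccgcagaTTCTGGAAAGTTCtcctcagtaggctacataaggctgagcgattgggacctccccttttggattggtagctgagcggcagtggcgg
Hspa5: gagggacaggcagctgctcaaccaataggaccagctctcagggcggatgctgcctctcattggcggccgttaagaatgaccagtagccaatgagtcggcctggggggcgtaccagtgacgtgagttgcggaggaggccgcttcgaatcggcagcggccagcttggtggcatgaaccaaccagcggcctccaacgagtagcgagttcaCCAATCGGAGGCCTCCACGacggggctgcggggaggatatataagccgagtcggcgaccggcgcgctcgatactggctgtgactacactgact
Xbp1: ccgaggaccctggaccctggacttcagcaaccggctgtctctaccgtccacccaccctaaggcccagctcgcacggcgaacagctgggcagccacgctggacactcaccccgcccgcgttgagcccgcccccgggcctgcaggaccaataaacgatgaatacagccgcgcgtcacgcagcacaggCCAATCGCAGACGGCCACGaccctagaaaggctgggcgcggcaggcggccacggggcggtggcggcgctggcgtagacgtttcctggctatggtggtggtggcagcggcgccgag

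Levels are in CPM, each gene's count scaled to the TMM-corrected total of its library over the 9 libraries of a tissue, and are compared for one gene at a time within one tissue. A log2 fold change is positive where the first-named group was higher, and its error is the standard error (SE) of edgeR's quasi-likelihood test. A gene is called changed at a Benjamini-Hochberg adjusted p under 0.05 over all genes tested. Retina libraries held 12283458 to 15644346 counts and RPE/choroid libraries 28573828 to 48203050. In retina, rod markers summed to 53474 to 58513 CPM in young, 33568 to 38433 in aged and 34533 to 45507 in 8-AG-treated libraries, and microglia and macrophage markers to 35.7 to 36.8, 119 to 276 and 134 to 140 CPM. Lens markers summed to 3009, 6769 and 169 CPM in young libraries 1, 2 and 3, to 17.9 to 24.4 in aged libraries, and to 1836, 20.4 and 23.9 in treated libraries 1, 2 and 3. In RPE/choroid, treated library 1 stood apart: RPE markers summed to 5907 CPM there against 9428 to 18192 in the other 8 libraries, and striated muscle markers to 41660 CPM against 15.6 to 4068.

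In aged compared with young retina, Hspb1 and Hspa5 rose, and the other 8 members did not pass the test. The calls were 2 of 10 members, against 14.5% of 14588 genes (7.29% called higher). The rule of the study, which asks for more than 1.5-fold and an unadjusted P under 0.05, took Hspb1 and the row named Hspa8, against 8.84% of genes. An unadjusted p under 0.05 alone was reached by 6 members (Hspa8, Hsph1, Hspb1, Hspa5, Xbp1 and Ddit3), against 29.2%. The groups did not overlap for 5 members, all higher in aged retina (Hspa8, Hsph1, Hspb1, Hspa5 and Xbp1), against 17.5% of all genes higher without overlap. The median log2 fold change was 0.27 over the members and 0.0019 over all genes, and 8 of 10 members had a positive value, as did 50.4% of genes. In bulk tissue, a change in the number of cells of a type and a change in RNA per cell cannot be told apart.

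Hspb1 (ENSRNOG00000023546) encodes HSP27, a small heat shock protein that binds unfolding proteins without ATP and guards the actin cytoskeleton. Its level was 1.70, 0.976 and 0.680 CPM in young libraries 1 to 3, 4.89, 8.42 and 5.06 CPM in aged libraries and 7.92, 6.10 and 5.28 CPM in treated libraries. Every aged and every treated library was above every young library, and aged and treated libraries overlapped. The fitted rise with age was 5.53-fold, a log2 fold change of 2.47 (SE 0.35, 95% CI 1.68 to 3.26, edgeR adjusted p = 0.0020, n = 3 per group). The young values rest on 10 to 22 counts per library and the aged values on 63 to 132. The call held in every alternative, and the log2 fold change was 2.16 to 2.89 when single libraries were left out. It was 3.17 without young libraries 1 and 2, those over 1000 CPM of lens markers, with the lone young library assumed to vary like the aged ones. Lens markers were above their aged range in all 3 young libraries and in treated library 1, where Hspb1 was at 7.92 CPM. The summed microglia and macrophage markers were higher and the summed rod markers lower in every aged and treated library than in every young one, and their part in the change of Hspb1 was not tested.

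**Figure D1:**
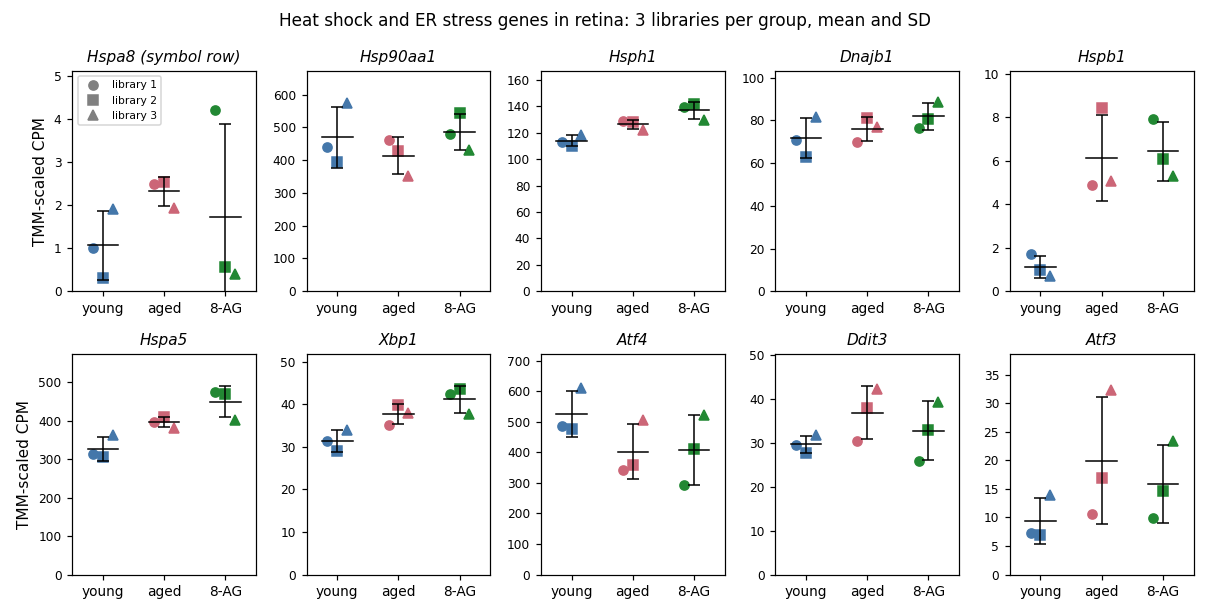
TMM-scaled CPM of the 10 members in retina for 3 young, 3 aged and 3 8-AG-treated aged libraries, each y axis starting at 0, with the symbols giving libraries 1, 2 and 3 and the lines the mean and SD. Hspb1 lay at 0.680 to 1.70 CPM in young and 4.89 to 8.42 CPM in aged retina, with no overlap, and Hspa5 at 305 to 363 CPM in young and 382 to 408 CPM in aged retina.

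Among the other cytosolic members, Hsph1 (ENSRNOG00000000902) encodes HSP110, the nucleotide exchange factor that lets HSP70 release its client. It was measured at 113, 110 and 118 CPM in young, 129, 128 and 122 CPM in aged and 139, 142 and 129 CPM in treated retina. The 3 groups stood in the order young, aged, treated with no overlap between neighbours. The log2 fold change with age was 0.15 (SE 0.06, adjusted p = 0.099), which did not pass. Dnajb1 (ENSRNOG00000021824), the HSP40 co-chaperone that hands clients to HSP70, was at 70.6, 63.0 and 81.4 CPM in young, 69.9, 81.0 and 76.9 CPM in aged and 76.2, 80.8 and 88.4 CPM in treated retina. All 3 groups overlapped, and the log2 fold change with age was 0.09 (SE 0.09, 95% CI -0.12 to 0.29, adjusted p = 0.58).

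Hsp90aa1 (ENSRNOG00000007219) encodes the inducible HSP90-alpha, which completes the folding of kinases and steroid receptors. It was at 441, 394 and 574 CPM in young, 461, 428 and 351 CPM in aged and 480, 542 and 432 CPM in treated retina, with overlap between all groups. The log2 fold change with age was -0.18 (SE 0.16, adjusted p = 0.52). It ran from -0.29 without young library 2 to -0.02 without young library 3, and was -0.46 without young libraries 1 and 2 (adjusted p = 0.14). A second entry described as heat shock protein HSP 90-alpha, LOC103692716 (ENSRNOG00000059714), took 79.9 to 86.5% of the counts of the pair in retina and 82.2 to 85.4% in RPE/choroid. Reads from such alike entries can be split between them by counting, so the value of Hsp90aa1 alone is uncertain. With both entries summed, the log2 fold change with age was 0.02 (SE 0.07, adjusted p = 0.91), the opposite sign of the single entry.

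Hspa8 encodes HSC70, the constitutive HSP70 that also strips clathrin from vesicles and carries proteins to chaperone-mediated autophagy. In the retina table the row named Hspa8 holds the counts of ENSRNOG00000032585, which the RPE/choroid table names AABR07048992.1. Its levels were 1.002, 0.300 and 1.91 CPM in young, 2.48, 2.55 and 1.94 CPM in aged and 4.23, 0.569 and 0.401 CPM in treated retina, from 4 to 55 counts per library. Its log2 fold change with age was 1.1 (SE 0.48, adjusted p = 0.16), which did not pass. It was 1.82 without young library 3 (adjusted p = 0.035), 0.67 without young library 2 (adjusted p = 0.29) and 0.30 without young libraries 1 and 2 (adjusted p = 0.73). The identifier that the RPE/choroid table names Hspa8, ENSRNOG00000034066, was at 274, 251 and 321 CPM in young, 321, 372 and 317 CPM in aged and 419, 428 and 399 CPM in treated retina. For that identifier the log2 fold change with age was 0.26 (SE 0.09, adjusted p = 0.10), and young library 3 lay within the aged range. Taking it in place of the named row leaves 2 members called and 4 without overlap.

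A further entry, LOC680121 (ENSRNOG00000009920), described as similar to heat shock protein 8, took 77.6 to 80.4% of the counts of the Hspa8 entries in retina and 5.07 to 5.74% in RPE/choroid. The tissues were prepared and counted separately, so tissue and counting cannot be told apart here. LOC680121 rose with age in retina, with a log2 fold change of 0.26 (SE 0.07, adjusted p = 0.042). All entries summed were at 1345, 1262 and 1547 CPM in young, 1647, 1734 and 1582 CPM in aged and 2073, 2144 and 1784 CPM in treated retina. Every aged library was above every young library and every treated library above every aged one. The summed log2 fold change with age was 0.26 (SE 0.08, adjusted p = 0.0503), just short of the threshold.

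**Figure D2:**
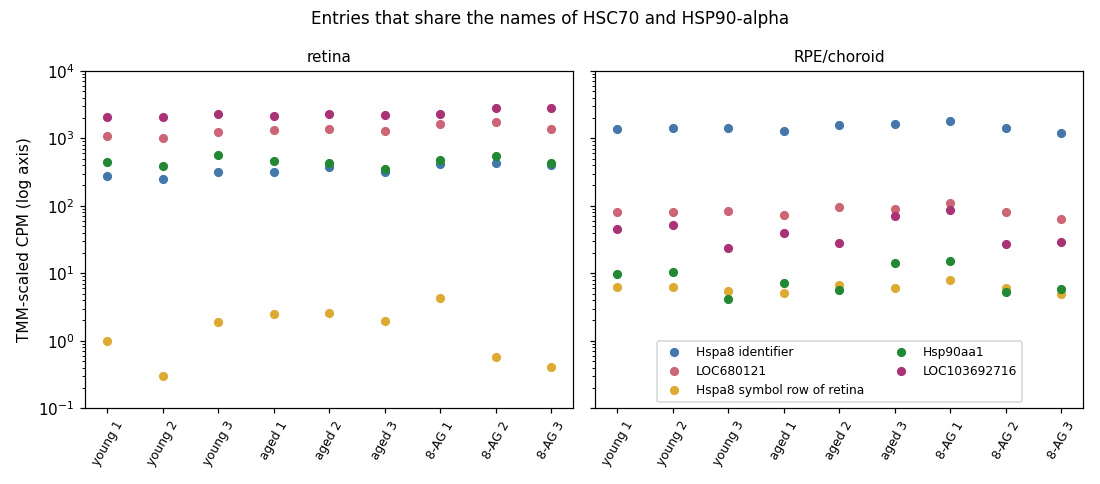
TMM-scaled CPM (log axis) of the entries named or described as Hspa8 and Hsp90aa1 in the 9 retina libraries (left) and the 9 RPE/choroid libraries (right). The retina row named Hspa8 lay at 0.300 to 4.23 CPM, far below LOC680121 and the identifier named Hspa8 in RPE/choroid.

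Of the ER members, Hspa5 (ENSRNOG00000018294) encodes BiP, the ER HSP70 that binds nascent chains and holds the stress sensors inactive. It was at 312, 305 and 363 CPM in young, 397, 408 and 382 CPM in aged and 473, 470 and 402 CPM in treated retina. Aged libraries were all above young ones, treated libraries were all above young ones, and aged and treated libraries overlapped. The log2 fold change with age was 0.28 (SE 0.07, 95% CI 0.12 to 0.44, adjusted p = 0.027), a rise of 21.3%. With the replicate number as a block, Hspa5 was not called. The call was lost without either of the young libraries 1 and 2 (log2 fold change 0.25 and 0.23, adjusted p = 0.117 and 0.118) and without any single aged library (0.26 to 0.31, adjusted p = 0.05003 to 0.0523), and it was kept without young library 3. Without both young libraries over 1000 CPM of lens markers, young library 3 alone remained and the log2 fold change was 0.14 (adjusted p = 0.53).

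Xbp1 (ENSRNOG00000010298) encodes the factor that IRE1 activates by splicing; gene counts do not separate spliced from unspliced RNA. It was at 31.3, 29.0 and 34.1 CPM in young, 35.2, 39.8 and 38.1 CPM in aged and 42.4, 43.5 and 37.6 CPM in treated retina. Aged libraries were all above young ones, with a log2 fold change of 0.27 (SE 0.08, adjusted p = 0.061) that did not pass. Hspa5, Xbp1, Hsph1 and Hsp90aa1, of which only Hspa5 passed with age, varied together from library to library within groups. With each group's mean removed, Pearson's r over the 9 libraries was 0.93 for Hspa5 with Hsph1, 0.84 for Hspa5 with Xbp1, 0.73 for Hsph1 with Xbp1, 0.91 for Hsp90aa1 with Hsph1, 0.84 for Hsp90aa1 with Hspa5 and 0.59 for Hsp90aa1 with Xbp1, as a description of libraries that share depth and handling.

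Atf4, Ddit3 and Atf3 also moved together from library to library. Atf4 (ENSRNOG00000017801), the central factor of the integrated stress response, was at 487, 478 and 611.99 CPM in young, 342, 358 and 505 CPM in aged and 292, 410 and 523 CPM in treated retina. The log2 fold change with age was -0.38 (SE 0.18, adjusted p = 0.22). Ddit3 (ENSRNOG00000006789), which encodes CHOP, was at 29.5, 27.7 and 31.6 CPM in young, 30.3, 37.9 and 42.1 CPM in aged and 25.9, 32.9 and 39.3 CPM in treated retina. Its log2 fold change with age was 0.32 (SE 0.11, adjusted p = 0.097). Atf3 (ENSRNOG00000003745), an early-response repressor induced by ATF4 and by nerve injury, was at 7.32, 6.90 and 14.0 CPM in young, 10.6, 16.8 and 32.3 CPM in aged and 9.84, 14.6 and 23.3 CPM in treated retina. The fitted level of Atf3 was 2.11-fold higher in aged retina, but the groups overlapped and the log2 fold change of 1.08 (SE 0.54, 95% CI -0.34 to 2.495) had an adjusted p of 0.27. It was 0.55 without aged library 3 and 0.90 to 1.48 without any other single library, and 0.52 without young libraries 1 and 2. Library 3 was the highest of its group for all 3 genes in young, aged and treated retina alike. With each group's mean removed, r over the 9 libraries was 0.93 for Atf4 with Atf3, 0.92 for Atf4 with Ddit3 and 0.91 for Ddit3 with Atf3. Without aged library 3 the fall of Atf4 passed (log2 fold change -0.58, adjusted p = 0.012). Without aged library 1 the rise of Ddit3 passed (0.43, adjusted p = 0.012) and that of Xbp1 did (0.31, adjusted p = 0.043). With the replicate number as a block, the fall of Atf4 and the rise of Atf3 passed (edgeR adjusted p = 0.0099 and 0.0051). The labels do not say what a replicate number stands for.

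The wider pathways, taken from lists of other genes, held called increases and called decreases with age in retina. The shares over all genes were 14.5% called and 7.29% called higher. Of 22 other cytosolic chaperones and heat shock factor targets, 2 rose and 3 fell, with a median log2 fold change of 0.04. Bag3, the co-chaperone that pairs with small heat shock proteins in autophagy, rose from 6.29 to 11.7 CPM (log2 fold change 0.90, SE 0.15, adjusted p = 0.0039), and Hsp90ab1, the constitutive HSP90-beta, rose by 0.25 (adjusted p = 0.024). Hspa1a, the classic inducible HSP70, fell from 159 to 94.1 CPM (log2 fold change -0.76, SE 0.08, adjusted p = 3.1e-04), though its near-identical neighbour Hspa1b can share its reads, and the small heat shock protein gene Hspb6 (-0.35) and the HSP110 relative Hspa4l (-0.33) also fell. Of 22 other ER chaperone and unfolded protein response genes, 3 rose and 2 fell, against the same 14.5% of all genes called. The risers were the folding enzymes Pdia4 (0.46, adjusted p = 0.016) and Pdia6 (0.32, adjusted p = 0.0053) and the lectin chaperone Calr (0.35, adjusted p = 0.0049). Those that fell were Sel1l (-0.32), which serves ER-associated degradation, and the sensor Atf6 (-0.31).

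Of 17 tested ATF4 targets and integrated stress response genes, 2 rose and 3 fell, again against 14.5% of all genes called, and with so few genes nothing is read from these list counts. Cebpb, a partner of CHOP and an inflammatory factor, rose from 1.78 to 5.92 CPM (log2 fold change 1.74, SE 0.29, adjusted p = 0.0036), and Atf5 rose by 0.44 (adjusted p = 0.037). Gadd45a (-0.71), Ddit4 (-0.53) and Ppp1r15a (-0.39), the phosphatase subunit that ends the response, fell. The mean log2 CPM of this list was 4.90, 5.17 and 5.46 in aged libraries 1, 2 and 3 and 5.00, 4.97 and 4.95 in young libraries 1, 2 and 3, so aged library 3 was the highest among the aged libraries here too. Immediate early genes, which respond to handling of tissue within minutes as well as to light and activity, rose for 2 of 10 and fell for 4 of 10. Their sum was 1393, 1231 and 487 CPM in young libraries and 204 to 236 CPM in aged ones. Egr1 alone had a mean of 798 CPM (SD 479) in young and 17.6 CPM (SD 9.39) in aged libraries. Egr1 thus makes up most of the fall in the sum, and the 2 that rose were Junb and Zfp36. The part of the sum in the values of the members was not tested.

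In 8-AG-treated compared with untreated aged retina, no member was called, against 3 of 14631 genes (0.0205%). With Hspa8 as the retina table names it, no member passed an unadjusted p of 0.05 in edgeR, against 3.67% of genes, and none was called with the Wald test of DESeq2, which called 18 genes. The comparison shares its aged libraries with that of aged and young retina. The labels give total RNA for the 3 treated retina libraries and polyA RNA for the rest, while the protocol describes poly-A capture for all. If the labels hold, RNA type and 8-AG cannot be told apart in retina. The aged and treated groups did not overlap for 1 member, Hsph1 (higher in treated retina), against 4.57% of genes, with a log2 fold change of 0.11 (SE 0.07, 95% CI -0.04 to 0.27). Hspa5 was 0.18 (SE 0.08, CI -0.0038 to 0.36), Hsp90aa1 0.23 (SE 0.12, CI -0.04 to 0.50) and Xbp1 0.13 (SE 0.09, CI -0.08 to 0.33). Hspb1 was at 0.06 (SE 0.25, CI -0.49 to 0.62). Atf4 was at 0.02 (CI -0.60 to 0.65), Ddit3 at -0.17 (CI -0.55 to 0.21) and Atf3 at -0.32 (CI -1.66 to 1.02). Every adjusted p of these members was at least 0.9957.

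For the retina row named Hspa8 the log2 fold change with 8-AG was -0.44 (SE 0.83, CI -2.45 to 1.58). For the identifier that RPE/choroid names Hspa8, the log2 fold change was 0.30 (SE 0.08, CI 0.12 to 0.48, unadjusted p = 0.0039, adjusted p = 0.9957), and every treated library was above every aged one. Taking that identifier as Hspa8 gives 1 member under an unadjusted p of 0.05 and 2 members without overlap. The summed Hspa8 entries had a log2 fold change of 0.27 (SE 0.09, CI 0.07 to 0.47) and the summed Hsp90aa1 entries, at 2511, 2441 and 2850 CPM in young, 2592, 2748 and 2533 CPM in aged and 2776, 3346 and 3206 CPM in treated retina, had 0.24 (SE 0.09, CI 0.04 to 0.44). Every treated library was above every aged one for both sums. Surface epithelium markers also set treated retina apart, with 12.1 to 27.7 CPM in treated libraries against 1.56 to 5.30 CPM in young and aged ones, and their part in these values was not tested. The edgeR adjusted p of both summed entries was 0.9955, and the summing was chosen after the values of the single entries were seen. None of the genes of the 4 pathway lists was called in this comparison, and the list median was 0.04 for cytosolic chaperones, 0.06 for ER chaperones and -0.14 for ATF4 targets.

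**Figure D3:**
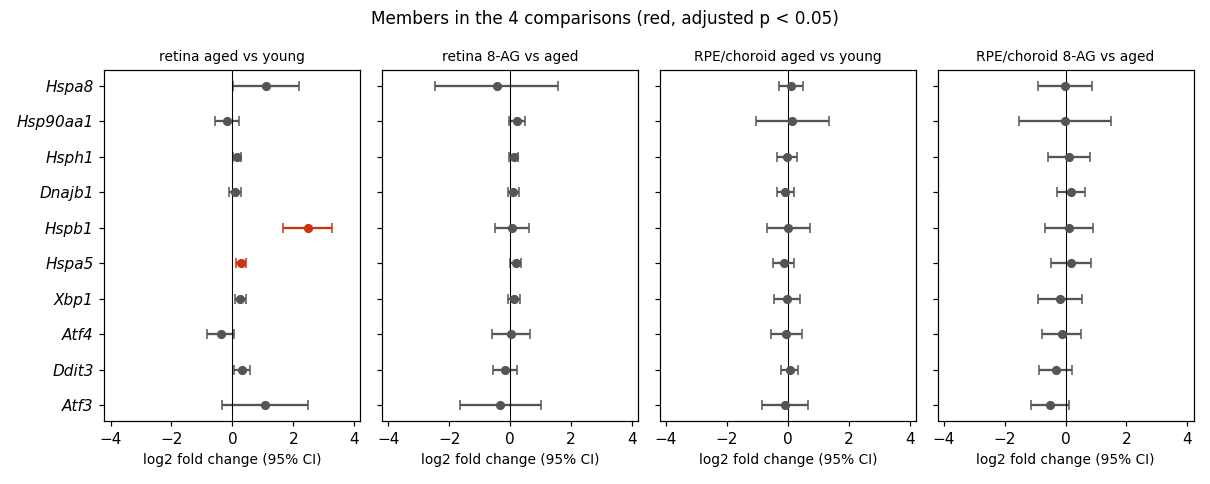
Log2 fold changes of the 10 members with 95% confidence intervals from edgeR in the 4 comparisons, 3 libraries per group, with red marking an adjusted p under 0.05. Only Hspb1 (2.47) and Hspa5 (0.28) in aged against young retina are red, and every member's interval in RPE/choroid includes 0.

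In RPE/choroid, no member was called changed between aged and young rats in edgeR. No gene of 16047 was called (0%), 341 had an unadjusted p under 0.05 (2.13%), none of them a member, and the Wald test of DESeq2 called 29 genes and no member. Members' log2 fold changes lay between -0.14 (Hspa5) and 0.15 (Hsp90aa1), with a median absolute value of 0.07 against 0.17 over all genes. Groups did not overlap for 1 member, Hspa5, which was lower in aged RPE/choroid, against 4.29% of genes lower without overlap. Hspa5 was at 725, 715 and 739 CPM in young, 592, 692 and 693 CPM in aged and 623, 758 and 826 CPM in treated RPE/choroid. Its log2 fold change with age was -0.14 (SE 0.14, 95% CI -0.48 to 0.19).

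Hspb1, which rose with age in retina, was at 112, 150 and 193 CPM in young, 110, 203 and 148 CPM in aged and 115, 196 and 181 CPM in treated RPE/choroid. The 3 groups covered the same range, and the log2 fold change with age was 0.02 (SE 0.29, CI -0.70 to 0.73). Hspa8, here under its own identifier, was at 1387, 1398 and 1431 CPM in young, 1293, 1586 and 1637 CPM in aged and 1795, 1417 and 1177 CPM in treated RPE/choroid, with a log2 fold change with age of 0.10 (CI -0.30 to 0.49). Young libraries were close to each other beside the spread of the others, and the range of the treated ones held every other value.

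Xbp1 was at 275, 282 and 315 CPM in young, 243.4, 343 and 270 CPM in aged and 175, 321 and 249 CPM in treated RPE/choroid. Ddit3 was at 70.01, 73.4 and 78.5 CPM in young, 69.3, 84.5 and 78.3 CPM in aged and 48.7, 77.0 and 57.0 CPM in treated RPE/choroid. Xbp1 and Ddit3 followed each other, with r = 0.95 over the 9 libraries after removal of group means, and both were lowest in treated library 1. Atf4 went the other way, with r of -0.70 with Xbp1 and -0.54 with Ddit3. The close r of Atf4, Ddit3 and Atf3 in retina was not seen here, with 0.04 for Atf4 with Atf3 and -0.30 for Ddit3 with Atf3. Dnajb1 was at 119, 106 and 122 CPM in young, 106, 116 and 107 CPM in aged and 105, 115 and 148 CPM in treated RPE/choroid. Its groups overlapped throughout.

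In 8-AG-treated compared with aged RPE/choroid, no gene of 16257 was called in edgeR (0%), 274 had an unadjusted p under 0.05 (1.69%), none of them a member, and DESeq2 called 81 genes and no member. Atf3 was the 1 member without overlap, against 1.91% of genes lower without overlap. It was at 33.2, 18.1 and 32.6 CPM in young, 33.0, 19.3 and 26.3 CPM in aged and 18.6, 17.2 and 18.1 CPM in treated RPE/choroid. All treated libraries were below all aged ones, by less than 1 CPM at the nearest pair, and young library 2 lay with the treated libraries. The log2 fold change was -0.52 (SE 0.25, CI -1.14 to 0.10), and it was -0.33 without aged library 1 and -0.48 to -0.70 without any other single library. Log2 fold changes of the other 9 members lay between -0.33 (Ddit3) and 0.18 (Dnajb1). None of the genes of the 4 pathway lists was called in RPE/choroid. The list medians were 0.0059 for cytosolic chaperones, -0.06 for ER chaperones, -0.06 for ATF4 targets and -0.63 for immediate early genes with age, and 0.15, -0.07, 0.20 and 0.51 with 8-AG in the same order. Without treated library 1, the log2 fold change of Hsp90aa1 went from -0.01 to -0.72, that of Atf4 from -0.13 to -0.37 and that of Hsph1 from 0.12 to -0.20, all with adjusted p of 0.92 or more.

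**Figure D4:**
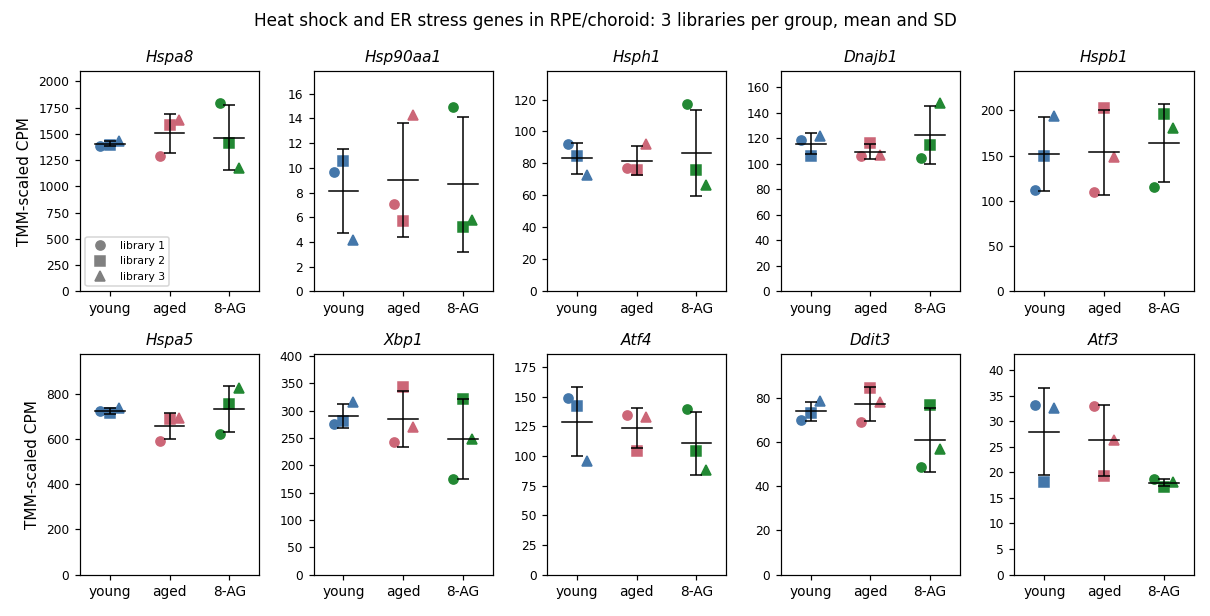
TMM-scaled CPM of the 10 members in RPE/choroid for 3 young, 3 aged and 3 8-AG-treated aged libraries, each y axis starting at 0, with the symbols giving libraries 1, 2 and 3 and the lines the mean and SD. The groups overlap for nearly every member, with Hspa5 lower in aged than in young libraries and Atf3 lower in treated than in aged libraries as the exceptions.

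Of the members, 4 split with the marker content of the RPE/choroid library. Rod markers, genes of the photoreceptors of the neural retina, summed to 11009 to 51861 CPM in 5 libraries (young 1 and 2, aged 1 and 3, treated 1) and to 576 to 1888 CPM in the other 4. Microglia and macrophage markers split the same libraries the other way, with 728 to 5024 CPM in the rod-rich and 5480 to 7476 CPM in the rod-poor ones, so both marker sums cannot be told apart here. Hsp90aa1 was at 7.07 to 14.95 CPM in the rod-rich and 4.18 to 5.79 CPM in the rod-poor libraries. Hsph1 was at 77.0 to 117 against 66.7 to 75.8 CPM, and Atf4 at 133 to 149 against 88.3 to 105 CPM. Hspb1 went the other way, with 110 to 150 CPM in rod-rich and 181 to 203 CPM in rod-poor libraries. These 4 of 10 members did not overlap between the libraries, against 22.8% of all genes. The limit of 5000 CPM between the sets was put in the gap after the values were seen, so this is a description without a test. Each group held libraries of both kinds. With the rod marker score as a covariate, the change of Hspb1 with age went from 0.02 to -0.11, that of Atf4 from -0.06 to 0.05 and that of Hsp90aa1 from 0.15 to 0.40, none of them called.

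**Figure D5:**
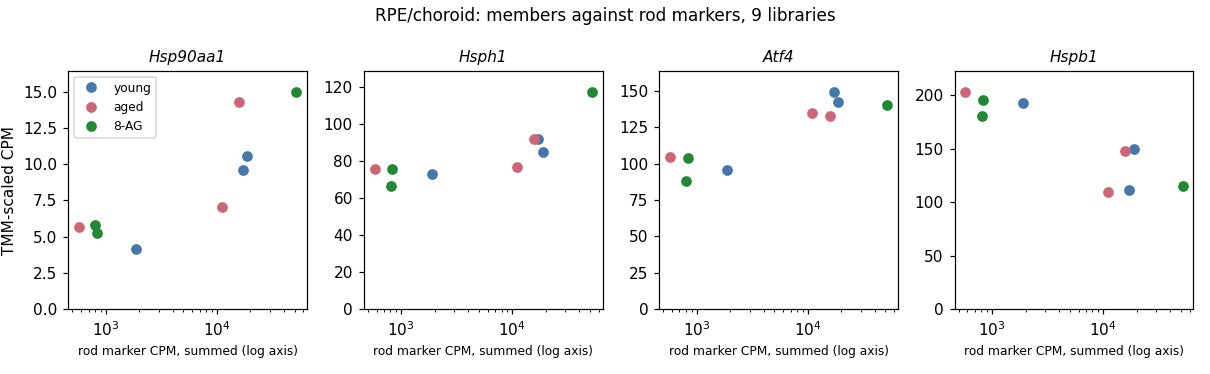
TMM-scaled CPM of Hsp90aa1, Hsph1, Atf4 and Hspb1 against the summed CPM of rod markers (log axis) in the 9 RPE/choroid libraries, coloured by group. The 5 libraries at 11009 CPM or more of rod markers were higher in Hsp90aa1, Hsph1 and Atf4 and lower in Hspb1 than the 4 at 1888 CPM or less, in all 3 groups of rats.

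Whether the change with age differed between the tissues was tested with an interaction term in one edgeR fit over both. For this test Hspa8 was taken as ENSRNOG00000034066 in both tissues. No member was called, against 27 of 16792 genes (0.161%). For Hspb1 the change in RPE/choroid minus that in retina was -2.46 on the log2 scale (SE 0.52, 95% CI -3.61 to -1.32, adjusted p = 0.089), the nearest of the members, and it was called with DESeq2 (adjusted p = 0.0051). By an unadjusted p under 0.05, met by 8.25% of genes, Hspb1 and Hspa5 stood out. For Hspa5 the difference was -0.43 (SE 0.15, CI -0.77 to -0.09, adjusted p = 0.41), which did not pass over all genes. For Atf3 it was -1.18 (SE 0.61, CI -2.54 to 0.18), and it was -0.66 without aged retina library 3 and -1.59 to -1.002 without any other single library. The other members lay between -0.30 (Xbp1) and 0.32 (Atf4).

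Genes outside the lists were ranked by how closely they followed the mean of the members over the 9 libraries of a tissue. Each member was first put on a common scale, with equal weight, and group means were left in. Hspa8 was the named low-count row in retina and ENSRNOG00000034066 in RPE/choroid. In retina the closest to the heat shock members were Strip2 (r = 0.96), Syt2 (0.95) and Moxd1 (0.94) of 10549 genes, and the closest to the ER stress members were mrpl9 (0.97), Txnl4b (0.96) and Ndufaf3 (0.95). In RPE/choroid, of 10210 genes, Dhx29 (0.94), Bud31 (0.94) and Fam92a (0.93) followed the heat shock members, and Ero1a (0.95), RGD1309104 (0.94) and Rasal2 (0.94) the ER stress members. Ero1a encodes the ER oxidase that recharges protein disulfide isomerase. These are the highest of many values over few libraries, and the set differs between the tissues. The members behind a mean did not all move together. With group means left in, r ran from -0.59 (Hspa5 with Atf4) to 0.96 (Hspa5 with Xbp1) over the ER stress members in retina. Over the heat shock members in RPE/choroid it ran from -0.68 (Hsp90aa1 with Hspb1) to 0.87 (Hsp90aa1 with Hsph1).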

How the data were processed

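Retina and RPE/choroid gave 9 mRNA libraries each, in 3 groups of 3 libraries that were taken from the sample labels (young, aged, aged with 8-AG). Per the labels, polyA RNA was used, with total RNA named for 3 retina libraries. For retina the authors deposited RSEM expected counts per gene, of which 11.5% of values are not whole; these were rounded here. For RPE/choroid the authors deposited raw read counts per gene. The submitters' processing notes name Bowtie2 2.1.0, RSEM 1.2.15, edgeR and the build Rnor_6.0, with no role or order, and the counting of RPE/choroid is not given in the sources used here. Tables of normalized signal that the authors deposited served only to pair symbols with identifiers. In retina, symbols were matched to identifiers by their values, within a relative gap of 0.002, which named 14716 genes. Of the 13952 also named in RPE/choroid, 91.5% had the same name. The authors' comparison tables, which hold fold changes and p-values, were not used.

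A fit within a tissue used only the 6 libraries of its pair of groups, and the tissue difference was fitted over the young and aged libraries of both tissues. Fits ran in edgeR (version 4.0.16, under R 4.3.3) with filterByExpr, TMM, estimateDisp, glmQLFit (robust=TRUE) and glmQLFTest; Benjamini-Hochberg adjustment ran over all genes tested. The scripts were tested on simulated data. For 3 libraries a side the smallest two-sided p of an exact permutation test is 0.1, so none was run. Log2 CPM used a prior count of 2. Alternatives were DESeq2 1.42.0 (Wald test), RLE size factors, a filter of at least 10 counts per library or none, a joint fit of all 3 groups, the replicate number as a block, leaving out libraries, summing libraries of one label number, a rod marker covariate and the rule of the study; summing alike gene entries was added after the data were seen. Tables and figures came from Python 3.11.15 (pandas 2.3.3, matplotlib 3.10.9).

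The members, the pathway lists and the marker lists were chosen with earlier results of these data known. All members are named; of each list, the text names up to 3 called increases and 3 called decreases with a mean log2 CPM of at least 1. Of 149 genes of all lists, 144 had an identifier. Promoters were matched to members by symbol.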

Additional observations from a re-analysis of the deposited data

Results flagged for a closer look

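Hspa5 was flagged because its libraries moved in opposite directions with age in the 2 tissues: all 3 aged retina libraries were above all 3 young ones, and all 3 aged RPE/choroid libraries were below all 3 young ones. The change in RPE/choroid minus that in retina was -0.43 on the log2 scale (SE 0.15, edgeR adjusted p = 0.41), so the difference between tissues did not pass over all genes. It kept its sign in every alternative and lay between -0.51 and -0.37 when single libraries were left out.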

How the results depend on the processing

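Over the comparisons and their alternatives, 684 of 746 recomputed values of members kept their direction and their side of the threshold, and 48 turned direction, none of which was called in any fit. With DESeq2, 18 genes were called for 8-AG in retina, 29 for age and 81 for 8-AG in RPE/choroid, and 307 for the tissue difference (1 member, Hspb1). Under the fold and unadjusted P rule the counts were 1289, 140, 217, 269 and 1138 (1 member, Hspb1, in the last), in the order age and 8-AG in retina, age and 8-AG in RPE/choroid, and tissue difference. With RLE size factors the tissue difference called 4 genes, and the log2 fold changes for 8-AG in RPE/choroid became 8.6e-04 for Hspa8 and 0.0022 for Hsp90aa1. No filter gave 10 calls for 8-AG in retina, and at least 10 counts per library gave 0, with 11 for the tissue difference. Without the lens-rich young retina libraries, 669 genes and 1 member were called and Dnajb1 went to -0.087. With entries summed, Hsp90aa1 went to 0.016 for age in retina and to 0.087 for 8-AG in RPE/choroid. For age in RPE/choroid, summing libraries of one label number gave 0.052 for Hsph1, -0.11 for Hspb1 and 0.049 for Atf4, and the rod covariate gave 0.018, -0.11 and 0.052 and 1 called gene, not a member; the causes were not tested.

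The labels do not say whether replicate numbers mark pairs. Correlations of deviations for same-numbered libraries ran from -0.62 to 0.66 over both tissues. Within retina they ran from -0.08 to 0.11, and whether same-numbered libraries share a batch was not tested. With a replicate block, 0 genes were called for 8-AG in retina and 0 for the tissue difference. For age in retina the replicate block called 1698 genes and 3 members, Hspb1 (2.46), Atf4 (-0.40, adjusted p = 0.0099) and Atf3 (1.03, adjusted p = 0.0051), and not Hspa5 (adjusted p = 0.058).

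With single libraries left out, 1245 to 2312 genes and 1 to 3 members were called for age in retina, 0 to 3 genes for 8-AG in retina, 0 to 49 for the tissue difference (49 without aged RPE/choroid library 2) and 0 in RPE/choroid. In the same runs, log2 fold changes that crossed 0 were, for 8-AG in retina, -2.26 to 0.063 for Hspa8, -0.12 to 0.37 for Hspb1, -0.19 to 0.22 for Atf4 and -0.71 to 0.21 for Atf3. For age in RPE/choroid they were -0.34 to 0.38 for Hsp90aa1, -0.13 to 0.044 for Hsph1, -0.24 to 0.21 for Hspb1, -0.18 to 0.066 for Xbp1, -0.25 to 0.052 for Atf4, -0.0081 to 0.13 for Ddit3 and -0.33 to 0.085 for Atf3. For 8-AG in RPE/choroid they were -0.22 to 0.10 for Hspa8, -0.72 to 0.48 for Hsp90aa1, -0.20 to 0.25 for Hsph1 and -0.091 to 0.36 for Hspb1, and for the tissue difference -0.17 to 0.56 for Hsp90aa1. In RPE/choroid the 95% intervals were -0.70 to 0.73 for Hspb1 and -1.05 to 1.34 for Hsp90aa1 with age, so a missed threshold there does not show that a member was unchanged.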
